A study of Mus musculus with 11 samples.

Results

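Klf2, Klf4, Klf5, Esrrb, Tfcp2l1, Prdm14, Tbx3 and Zfp42 encode transcription factors associated with the naive pluripotent state, and the data describe H3K4me1 peaks and CpG methylation at these 8 genes, of 21627 protein-coding genes on chromosomes 1 to 19 and X. The genes were taken from a list by name, and each was examined as its RefSeq gene body with 20 kb on both sides (GRCm38/mm10), called a locus below. The cells were E14, a mouse embryonic stem cell line of 129/Ola background grown in serum with leukemia inhibitory factor (LIF). The assay, CUT&Tag-BS, cuts out DNA at an antibody-marked histone with a tethered transposase carrying methylated adapters. The fragments are then bisulfite-sequenced, so CpG methylation is read on DNA enriched for the mark. Calls also fell outside the peaks of a mark. Fragments named by a mark below are those of its library and need not bear it. H3K4me1 and H3K9me3 libraries were made from 250000 cells each and sequenced in 2 runs (35-bp reads in run 1, 75-bp reads in run 2), H3K27me3 libraries came from 4000, 20000, 100000 and 250000 cells, and 1 control without bisulfite was made for each mark from 250000 cells. All cells were untreated, so the comparisons are between regions and between marks.

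Naive pluripotency is the state of the epiblast of the preimplantation embryo, which embryonic stem cells keep when LIF activates STAT3 and when FGF and ERK signalling is weak. The 8 factors lie downstream of these signals and act with Pou5f1, Sox2 and Nanog at distal enhancers, stretches of DNA whose histone H3 is monomethylated at lysine 4 (H3K4me1). DNA methylation of CpGs is usually low at bound enhancers and at CpG-rich promoters and high elsewhere, while H3K27me3 is laid down by Polycomb and H3K9me3 marks heterochromatin.

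The deposited table held 377316 to 37159887 CpG calls per library on these chromosomes, with 9684591 calls in H3K4me1 run 2 and 4915289 in run 1. Runs 1 and 2 of a mark were treated as repeat sequencing of 1 library. Among CpGs of the 8 loci called once in each H3K4me1 run, 98.6% of 414 had the same state, against 76.7% of 677 CpGs called 2 times within run 2. The corresponding values were 96.4% of 112 and 80.9% of 89 for H3K9me3, whereas H3K27me3 from 100000 and 250000 cells matched at 81.9% of 254 CpGs and 83.7% of 498 within the larger library. Run 2 therefore gives the main values, run 1 stands beside it without counting as a replicate, and every test compares regions or single libraries, not marks or cultures: H3K4me1 and H3K9me3 have 1 bisulfite library each, and the 4 of H3K27me3 differ in cell number. No RNA was measured, so the naive label cannot be checked by expression. H3K4me1 lay over the promoter of 5 of 5 stem cell markers (Pou5f1, Sox2, Nanog and the members Zfp42 and Esrrb), 2 of 4 fibroblast, 2 of 3 neural, 2 of 3 endoderm and 3 of 3 mesoderm markers, against 23.3% of all genes. H3K27me3 lay over 1 of 5 stem cell markers and over all 4 fibroblast, 3 neural, 3 endoderm and 3 mesoderm markers, against 30.1% of all genes.

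Start sites came from RefSeq's promoter table for 5 of the 8 genes (GRCm38.p6). They were Klf2 at chr8:72319062, Klf4 at chr4:55532475, Tfcp2l1 at chr1:118627945, Zfp42 at chr8:43307009 and Esrrb at chr12:86421644, the more CpG-dense of its 2 starts. Klf5 (chr14:99298691), Prdm14 (chr1:13127163) and Tbx3 (chr5:119670534) had no entry, and whichever end of the gene was richer in CpGs stood for the start. Distances below run in the direction of transcription and are negative upstream of the start. The 250 bases before a start are printed below to show what the methylation calls rest on, for both CpG-dense and CpG-poor starts, with each CpG in capitals and the rest in lower case, in the direction of transcription:
Klf2, chr8:72318812-72319061, + strand: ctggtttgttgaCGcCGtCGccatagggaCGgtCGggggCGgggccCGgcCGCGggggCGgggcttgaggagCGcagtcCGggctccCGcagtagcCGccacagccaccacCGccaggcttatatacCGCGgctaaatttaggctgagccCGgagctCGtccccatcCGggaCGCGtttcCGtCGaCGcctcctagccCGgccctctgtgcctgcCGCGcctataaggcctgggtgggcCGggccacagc
Klf4, chr4:55532476-55532725, - strand: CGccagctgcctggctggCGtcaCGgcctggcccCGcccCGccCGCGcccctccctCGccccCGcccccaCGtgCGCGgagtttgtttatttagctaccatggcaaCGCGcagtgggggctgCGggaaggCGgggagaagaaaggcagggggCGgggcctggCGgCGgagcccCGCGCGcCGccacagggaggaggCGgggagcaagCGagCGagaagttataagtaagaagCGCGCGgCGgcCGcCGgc
Tfcp2l1, chr1:118627695-118627944, + strand: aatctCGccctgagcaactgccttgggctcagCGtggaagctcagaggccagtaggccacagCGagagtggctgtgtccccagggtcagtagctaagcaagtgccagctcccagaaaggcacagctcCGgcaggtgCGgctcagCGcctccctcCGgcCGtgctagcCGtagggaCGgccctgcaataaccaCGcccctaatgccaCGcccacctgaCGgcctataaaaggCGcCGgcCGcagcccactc
Zfp42, chr8:43307010-43307259, - strand: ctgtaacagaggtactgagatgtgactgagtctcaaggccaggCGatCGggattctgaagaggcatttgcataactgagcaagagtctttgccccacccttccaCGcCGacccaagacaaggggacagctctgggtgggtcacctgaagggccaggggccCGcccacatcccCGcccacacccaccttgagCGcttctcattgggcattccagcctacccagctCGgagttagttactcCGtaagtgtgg
Esrrb, upstream start, chr12:86360867-86361116, + strand: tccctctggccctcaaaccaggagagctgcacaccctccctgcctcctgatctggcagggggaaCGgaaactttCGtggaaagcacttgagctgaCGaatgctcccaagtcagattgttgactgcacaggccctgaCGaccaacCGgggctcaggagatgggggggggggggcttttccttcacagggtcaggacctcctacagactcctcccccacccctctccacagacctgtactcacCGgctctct
Esrrb, inner start, chr12:86421394-86421643, + strand: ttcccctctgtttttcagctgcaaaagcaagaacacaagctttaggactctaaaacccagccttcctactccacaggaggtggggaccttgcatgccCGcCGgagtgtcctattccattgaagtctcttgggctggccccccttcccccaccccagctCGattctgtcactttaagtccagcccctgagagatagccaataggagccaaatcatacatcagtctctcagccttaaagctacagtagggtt

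The CpGs in these stretches match the positions of the deposited table at 100% of 323261 CpGs over all 32851 promoter windows. Klf4 has 32 CpGs in its 250 bases, Klf2 29, Tfcp2l1 16 and Zfp42 9, against a median of 6 over all windows. Esrrb has 6 CpGs before its upstream start and 3 before its inner start. In H3K4me1 run 2, 0 of 226 calls were methylated in the Klf2 stretch, which allows a level of up to 1.33%, 1 of 145 in that of Tfcp2l1 and 1 of 46 in that of Zfp42. The Klf4 stretch had 0 calls in that run, and its 9 calls in H3K27me3 from 250000 cells were all unmethylated, which allows up to 33.3%. On H3K27me3 fragments the Esrrb stretches differed, with 27 of 46 calls methylated before the upstream start and 5 of 204 before the inner start. GGGCGG, the GC box read by Sp and Krüppel-like factors, occurred 4 times before Klf4, 2 times before Klf2 and 2 times before Zfp42, counted on both strands, and 32.7% of all windows hold it. AAGGTCA, the extended nuclear receptor site bound by Esrrb, was in 0 of these 6 stretches and in 4.08% of all windows.

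H3K4me1 covered an unusually large part of most of these loci. Unified peaks, the authors' combined peak list for the mark, occupied 73.0% of the Klf2 locus, 65.7% of Tbx3, 50.2% of Klf5, 47.1% of Prdm14, 32.0% of Esrrb, 31.4% of Tfcp2l1, 20.2% of Zfp42 and 4.63% of Klf4. The median over all protein-coding genes was 1.10%, and the covered share lay above that of 99.9% of genes at Klf2, 99.8% at Tbx3, 89.4% at Zfp42 and 66.3% at Klf4. Klf4, a LIF and STAT3 target best known as a reprogramming factor, had the lowest share of the 8, far below its relatives Klf2 and Klf5. The 8 loci held 62 H3K4me1 peaks, all 8 loci had at least 1 (57.2% of all genes did), and 47 of the 62 were called in both bisulfite runs and the control alike. Here and below, a unified peak counts as called in a list where any peak of that list overlaps it.

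Peaks over 5 kb wide made up 15 of the 62, against 7.34% of all 37244 H3K4me1 peaks. Each of the 15 was overlapped by peaks of all 3 lists, which need not span its full width. Esrrb had the widest, 41.8 kb inside the gene body (chr12:86473503-86515306). The widest at the others were 16.1 kb over the Tbx3 promoter and upstream, 12.4 kb in the Klf5 gene body and beyond its end, 12.3 kb in the Tfcp2l1 gene body, 11.8 kb downstream of Klf2, 8.88 kb over the Prdm14 promoter, 2.23 kb upstream of Zfp42 and 0.589 kb downstream of Klf4. The maps of the 8 loci show these blocks with the methylation level of every 1-kb bin.

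**Figure D1:**
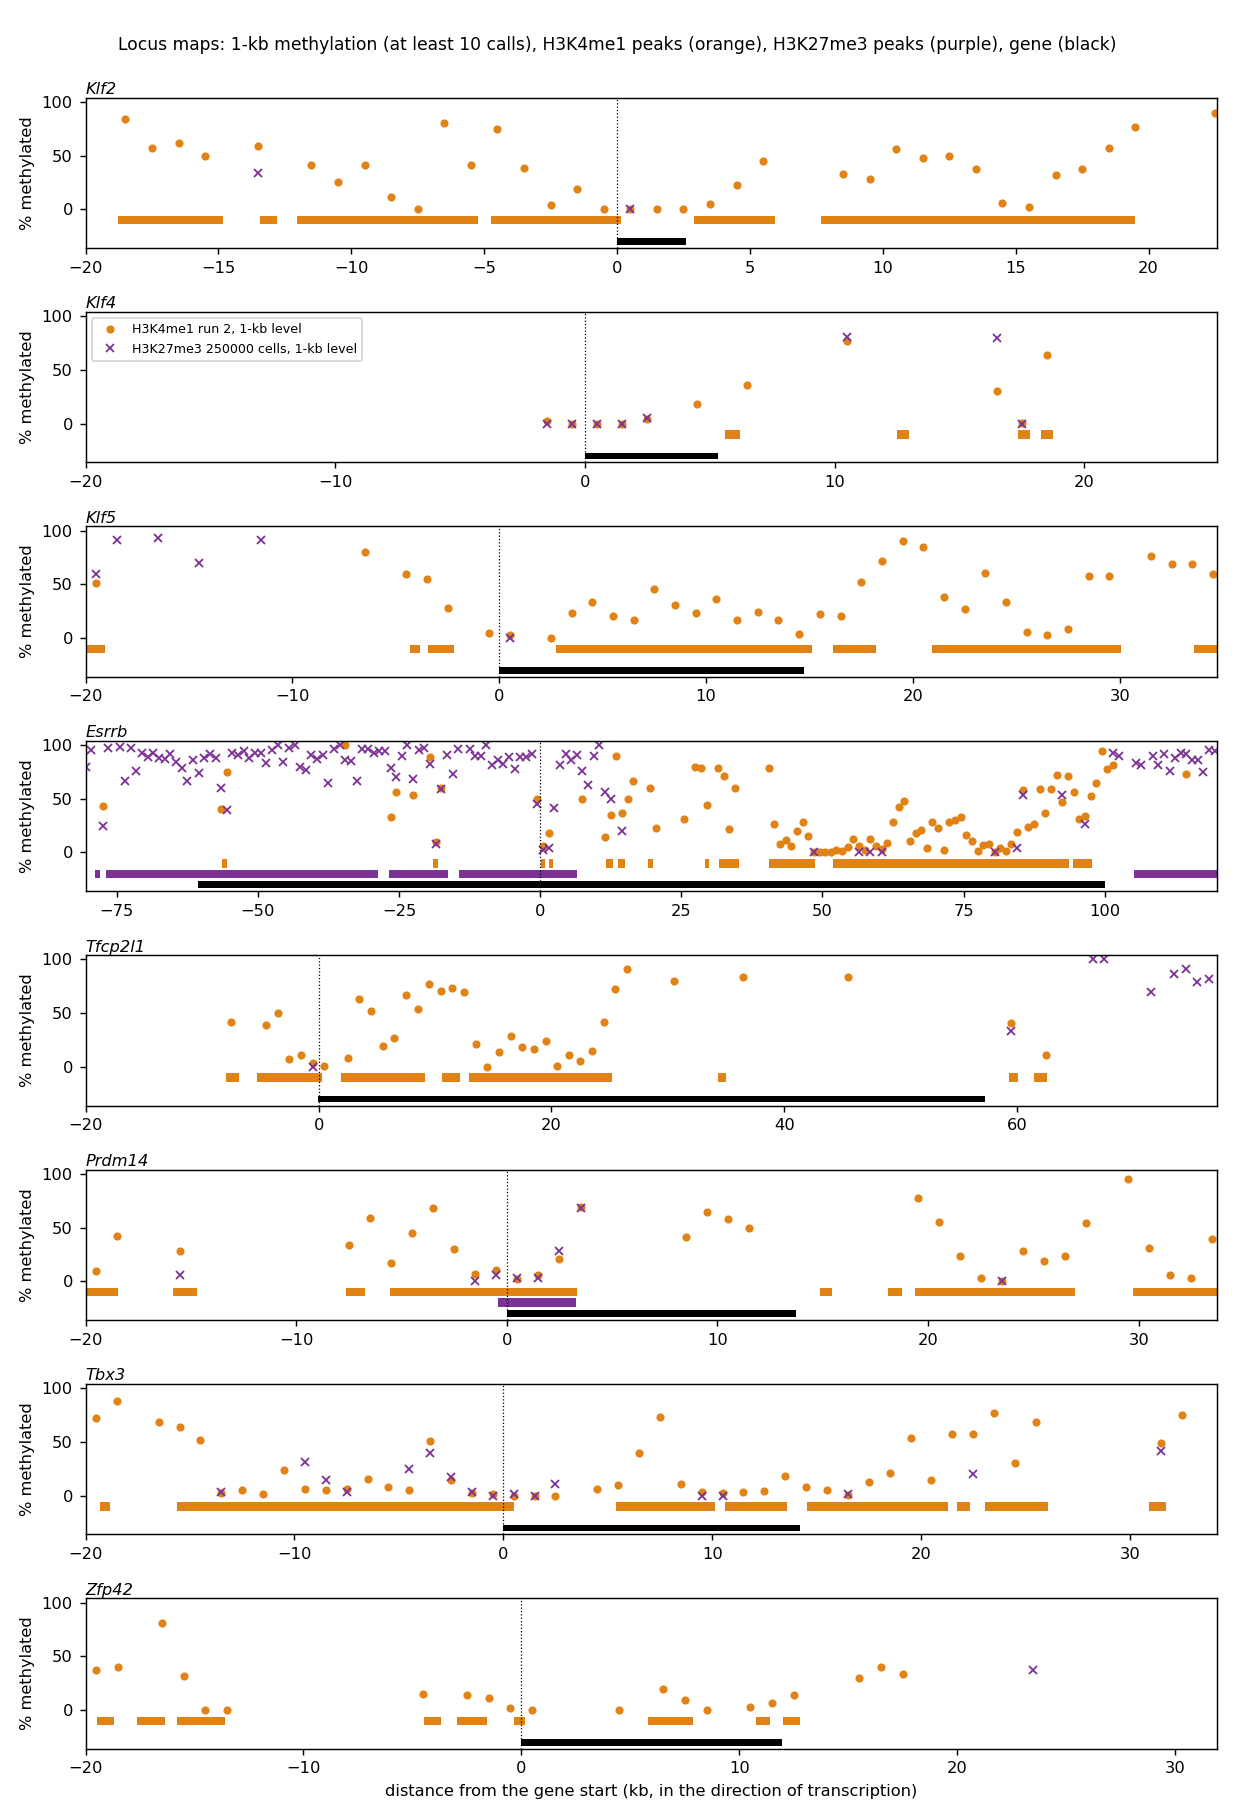
Each panel is 1 locus; x is the distance from the gene start in kb in the direction of transcription and y the methylation level (%) of 1-kb bins with at least 10 calls in H3K4me1 run 2 (orange points) and in H3K27me3 from 250000 cells (purple crosses). Bars under the points are H3K4me1 peaks (orange), H3K27me3 peaks (purple) and the gene (black). Broad H3K4me1 blocks cover much of Klf2 and Tbx3 and, at Klf5, the gene body and stretches past its end. At Esrrb they lie in the gene body between the H3K27me3 blocks. Klf4 has 4 small peaks, and purple bars appear at Esrrb and Prdm14 alone among the 8.

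At the promoters, defined as all CpGs within 1000 bp of the start, methylation on H3K4me1 fragments was low at every gene. The Krüppel-like factors come first. Klf2, whose protein is degraded under ERK signalling, had 0.576% of 347 calls methylated in run 2 (95% Wilson interval 0.158 to 2.08) and 1.24% of 161 in run 1. Klf4 had 0 of 40 and 0 of 35, which allow up to 7.5% and 8.57%. Of the 40 Klf4 calls in run 2, 36 lay 500 to 1000 bp from the start and 0 within 250 bp of it. Run 1 had 10 calls within 250 bp, all unmethylated. Klf5, needed for self-renewal and for the early blastocyst lineages, had 4.52% of 155 and 3.66% of 82. All these intervals and limits cover counting error alone, since PCR copies and CpGs on one fragment are not independent.

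The other factors spread more widely. Esrrb, an orphan nuclear receptor and Nanog target, was the highest of the 8, with 11.9% of 201 run 2 calls (8.16 to 17.2) and 14.2% of 120 in run 1. The sides of its start differed in run 2, with 14 of 28 calls methylated in the 1 kb before it and 10 of 173 in the 1 kb after it. Tfcp2l1, a CP2-family factor and STAT3 target, had 2.78% of 288 calls and, in run 1, 1.26% of 159. Prdm14, a PR-domain protein that represses Dnmt3b and FGF signalling, had 5.78% of 899 calls and 3.97% of 453 in run 1. Tbx3, a T-box factor, had 0.738% of 271 and 0 of 194, and Zfp42 (Rex1), a zinc finger protein widely used as a naive marker, had 1.45% of 69 and 0 of 20. The median was 2.11%, against 4.55% over 14137 genes with at least 10 calls. In rising order, Klf4, Klf2, Tbx3, Zfp42 and Tfcp2l1 have overlapping Wilson intervals, as do Klf5 and Prdm14. These sets are not separate. The Klf5 interval also overlaps those of Klf4, Tbx3, Zfp42 and Tfcp2l1, and the Prdm14 interval those of Klf4, Zfp42 and Tfcp2l1. Esrrb's interval overlaps those of Klf4 (Wilson interval 0 to 8.76) and Klf5 alone.

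A H3K4me1 peak touched the promoter window at 6 of the 8 genes, all but Klf4 and Klf5, against 23.3% of all genes. Levels of these 6 promoter peaks were all under 20%. They were 1.64% of 61 calls at Zfp42, 3.94% of 127 at Esrrb, 7.84% of 561 at Klf2, 8.89% of 1901 at Prdm14, 10.2% of 2844 at Tbx3 and 10.5% of 469 at Tfcp2l1. The Esrrb and Zfp42 promoter peaks, of 830 and 501 bp, were each called in 1 of the 3 lists.

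Distal H3K4me1 peaks, taken as CpGs inside the peaks of a locus and over 2000 bp from every protein-coding start, had a higher methylation level than the promoter in run 2 at all 8 genes, and the difference had an adjusted p under 0.05 at 7 of them, all but Klf4. Klf2 had the highest distal level, 32.2% of 2505 calls in run 2 with 32.3% of 1379 in run 1. Klf5 had 23.2% of 2977 and 22.2% of 1465, and Klf4 5.22% of 115 and 2.63% of 76. Thus the 3 Krüppel-like factor genes held the highest and the lowest distal level of the 8. Tfcp2l1 had 21.0% of 2125 and 21.5% of 1111, Esrrb 20.9% of 6040 and 20.2% of 2950, and Prdm14 15.8% of 2677 and 16.7% of 1431. Tbx3 had 15.7% of 4325 and 16.4% of 2297, and Zfp42 14.9% of 552 and 13.6% of 324. Intervals overlapped between neighbours in this order from Klf5 to Tfcp2l1 and Esrrb, and among Prdm14, Tbx3 and Zfp42. The median of the 8 was 18.4%, against 29.5% over 10867 genes with distal calls.

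The distal level exceeded the promoter level by 31.6 points at Klf2 (Fisher's exact test, two-sided, adjusted p = 1.02e-48 with Benjamini-Hochberg adjustment over 9488 genes). This was the 1 gene of the 8 past the call rule of an adjusted p under 0.05 and at least 20 points; 55.4% of all genes tested passed with the distal level higher, and 4.77% with the promoter higher. At any size, 7 of the 8 had an adjusted p under 0.05, against 73.7% of all genes. The differences at these other 6 were 18.7 points at Klf5 (adjusted p = 1.67e-09, Fisher's exact test), 18.3 at Tfcp2l1 (4.03e-17), 15.0 at Tbx3 (3.79e-16), 13.4 at Zfp42 (8.59e-04), 10.02 at Prdm14 (1.66e-15) and 8.97 at Esrrb (2.01e-03). Klf4 differed by 5.22 points (adjusted p = 0.377, Fisher's exact test). The members' median difference was 14.2 points against 22.6 over all genes. In run 1 alone, or with 1 call per CpG (chosen after seeing the data), 5 of the 8 kept an adjusted p under 0.05, and Esrrb and Zfp42 did not (0.159 and 0.114 in run 1). Fisher's exact test takes every call as independent, so its p-values can be too small. With 1 call per CpG the adjusted p was larger at all 8 genes, among them Klf2 (5.18e-13), Prdm14 (6.80e-04) and Tbx3 (8.22e-05, Fisher's exact test). The Esrrb difference of 8.97 points was 6.04 in run 1 and 0.817 with 1 call per CpG (adjusted p = 1.00, Fisher's exact test), and with a 500-bp promoter window its adjusted p was 0.134 by the same exact test. In run 1 alone and with 1 call per CpG, 2 genes passed the call rule, Klf2 and Tfcp2l1. With the 500-bp window they were Klf2 and Klf5.

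**Figure D2:**
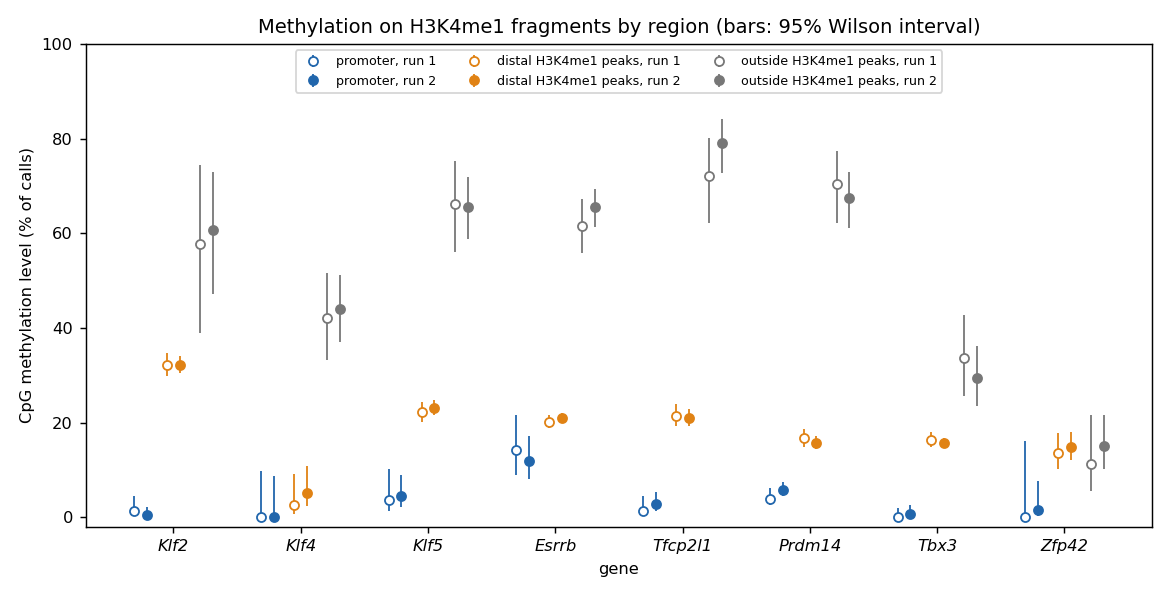
Methylation level (% of calls, y) on H3K4me1 fragments at the promoter (blue), in distal H3K4me1 peaks (orange) and outside the peaks (grey) for each gene (x), with open points for run 1, filled points for run 2 and bars for the 95% Wilson interval. Promoters lie lowest at every gene, and the distance from orange to grey is wide at Tfcp2l1 (21.0% and 79.0%) and closed at Zfp42 (14.9% and 15.0%).

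Outside the peaks, the same library gave high levels at most of these loci, 79.0% of 200 calls at Tfcp2l1, 67.4% of 239 at Prdm14, 65.7% of 198 at Klf5, 65.6% of 537 at Esrrb and 60.8% of 51 at Klf2 in run 2. Klf4 had 44.0% of 184. Tbx3 and Zfp42 were low outside the peaks as well, at 29.4% of 194 and 15.0% of 153, and 33.6% of 113 and 11.3% of 62 in run 1. Of all genes with such calls, 4.27% were below Tbx3 and 0.86% below Zfp42; the median was 65.2%. The Zfp42 level rests on few of its CpGs, since 77 of 582 outside the peaks were called in run 2. Every 1-kb bin centred from 5.5 to 12.5 kb upstream of Zfp42 had 0 calls in both H3K4me1 runs and in H3K27me3 from 250000 cells. On CpGs that the H3K27me3 library from 250000 cells also called, Zfp42 had 3.45% of 29 calls in H3K4me1 and 13.6% of 22 in H3K27me3, and Tbx3 had 31.25% of 80 and 35.85% of 53. Over all its CpGs outside the peaks, Zfp42 had 45.6% of 68 calls in H3K27me3, where 16 of the 77 CpGs called in H3K4me1 run 2 were called in both libraries.

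Of the 55 member peaks with at least 20 calls, 23 had a level under 20%, 21 from 20% to 50% and 11 over 50%. Among 30581 peaks of the whole list these classes held 34.4%, 47.7% and 17.9%. The median was 21.9% in the loci and 28.5% in the whole list. Member peaks over 5 kb had a median of 14.4% with none over 50%, those of 1 to 5 kb 28.85%, and those up to 1 kb 39.0%. Over the whole list the medians were 26.3%, 29.7% and 27.03%. Levels over 50% were rare among broad peaks there too, at 138 of 2734 peaks over 5 kb. Between the runs, the 41 member peaks with at least 20 calls in both differed by a median of 1.70 points and at most 9.84, at a Tbx3 peak.

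**Figure D3:**
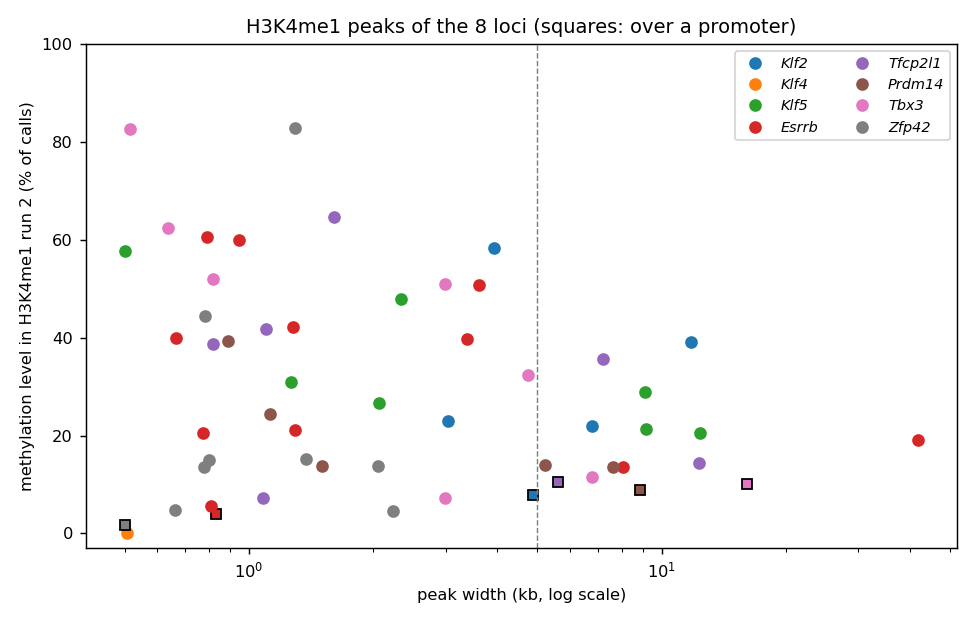
Each point is 1 of the 55 H3K4me1 peaks with at least 20 calls; x is its width in kb (log scale), y its methylation level in H3K4me1 run 2 (% of calls), colour the gene, and squares the peaks over a promoter. To the right of the dashed line at 5 kb no peak exceeds 39.1%, and the 11 peaks over 50% lie to its left. In the whole list, 138 of 2734 peaks over 5 kb exceed 50%.

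Single peaks within a locus differed widely. At Klf2 the peak with most calls (chr8:72326743-72338541, centred at 13.6 kb) had 39.1% of 1077, the lowest distal peak (chr8:72307037-72313818, at -8.63 kb) 21.9% of 832 and the highest (chr8:72300298-72304219, at -16.8 kb, over the noncoding Gm40505 and a pseudogene) 58.4% of 221. At Klf5 the gene-body peak (chr14:99301431-99313830) had both the most calls and the lowest level, 20.4% of 1307, and a 501-bp peak at -4.06 kb (chr14:99294379-99294879) the highest, 57.7% of 26. That last peak was called in 1 list and had 40.0% of 15 calls in run 1. So none of the 7 Klf5 peaks fell under 20%.

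The Klf4 locus had 4 peaks of 501 to 589 bp, all past the 3' end of the gene, with 0 of them in all 3 lists. The 1 peak with at least 20 calls (chr4:55514635-55515140, 17.6 kb downstream, no RefSeq gene) held 38 CpGs, and 0 of 98 calls were methylated in run 2, 0 of 69 in run 1, 0 of 15 in H3K9me3 run 2, and 0 of 71 and 0 of 26 in H3K27me3 from 100000 and 250000 cells. The element had no methylated call in any run or library that covered it, where the 2 runs of a mark appear to read 1 library. It gave 98 of the 115 calls behind the Klf4 distal level of 5.22%, and all 6 methylated calls lay in the other small peaks, 5 of 9 at chr4:55513714-55514214, 1 of 2 at chr4:55526259-55526847 and 0 of 6 at chr4:55519472-55519972. Around the Klf4 start itself, 5 consecutive 1-kb bins from 2 kb before to 3 kb after had 1.27% of 158 calls in H3K4me1 run 2 and 0.433% of 231 in H3K27me3, with no peak of either mark.

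At Tfcp2l1 a 12.3-kb peak 19.1 kb into the gene (chr1:118640838-118653171) had the most calls and 14.4% of 1408. Its lowest peak lay past the gene end (chr1:118689435-118690514), with 7.32% of 41, and its highest in the gene body (chr1:118638519-118640126), with 64.7% of 34. That highly methylated peak is the neighbour of the 12.3-kb block on its promoter side. Prdm14 held 6 peaks with at least 20 calls, from 8.89% over the promoter to 39.4% of 33 upstream (chr1:13133898-13134786). The Prdm14 peak with most calls among the distal ones, and the lowest, lay 23.2 kb from the start, past the gene end and over the noncoding Gm39592 (chr1:13100185-13107804), with 13.7% of 1471.

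At Tbx3 the distal peak with most calls (chr5:119685059-119691843, over the noncoding Tbx3os2) had 11.6% of 1318. The lowest lay in the gene body (chr5:119681137-119684118) with 7.23% of 166, and the highest at -19.1 kb (chr5:119651211-119651725) with 82.6% of 23. At Zfp42 the peak at -14.7 kb (chr8:43320588-43322817) had both the most calls and the lowest level, 4.58% of 153 (4.27% of 117 in run 1). The next peak upstream, at -17.0 kb (chr8:43323369-43324661), was the most methylated of all 55, at 82.8% of 29 (75.0% of 12). The lowest and the highest distal peak of Zfp42 were thus neighbours.

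Broad peaks were mosaics. In 1-kb tiles with at least 10 calls, each of the 15 member peaks over 5 kb held a tile under 10%, against 74.9% of 2734 such peaks in the whole list, and 11 of the 15 also held a tile over 50%, against 62.4%. Of the 171 member tiles, 60 (35.1%) were under 10% and 22 (12.9%) over 50%, where all 24375 tiles of such peaks gave 20.9% and 28.3%. In the Klf2 upstream block, a tile centred at -7.53 kb (chr8:72311037-72312036, 12 CpGs) had 0 of 165 calls methylated (up to 1.82%; 0 of 82 in run 1), and the adjoining tile (chr8:72312037-72313036) 80.0% of 30 (83.3% of 18 in run 1). The Prdm14 block past the gene end had 0.407% of 491 calls in its lowest tile (chr1:13103185-13104184, 23 CpGs) and 77.3% of 22 in its highest. In the Klf5 block at chr14:99332281-99341415 the lowest tile, 41.1 kb from the start and past the locus end, had 0 of 92 calls methylated (up to 3.26%). The highest had 65.5% of 58.

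In the Tbx3 promoter block 14 of 17 tiles were under 10%, while the tile farthest upstream had 71.4% of 21 calls. Esrrb's 41.8-kb peak, its distal peak with most calls, had 19.02% of 4517 calls methylated in run 2 and 18.85% of 2191 in run 1. In it 17 of 42 tiles were under 10%. Its lowest tile (chr12:86501503-86502502, 80.4 kb past the inner start, 21 CpGs) had 0 of 244 calls (up to 1.23%) and 0 of 132 in run 1, and its highest (chr12:86513503-86514502) 71.6% of 88. Across the gap between Esrrb's broad peaks, 7 consecutive 1-kb bins 48 to 55 kb past the inner start (chr12:86469644-86476643, 134 CpGs) were each under 10%, together 1.52% of 330 calls in run 2, 1.18% of 170 in run 1 and 0 of 48 in H3K27me3 from 250000 cells. A run of bins that long or longer occurred in 0.412% of all gene loci. Klf2, Klf4 and Tbx3 each had 5 such bins around the start, a length reached by 1.79% of genes. The longest was 3 kb at Klf5 (13.7% of genes as long) and 2 kb at Tfcp2l1, Prdm14 and Zfp42 (43.7%). Each bin needed at least 10 calls, so thin cover could end a run. At Zfp42 the run stopped at a bin 9.5 kb from the start with 0 of 9 calls methylated. Loci were not matched for length, and that of Esrrb, at 200.5 kb, has more bins than the others. These low stretches and tiles were picked for their level and are given as a description.

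H3K9me3 peaks touched 0 of the 8 loci, where 29.2% of all genes had one in the locus and 1.64% over the promoter. H3K27me3 peaks touched 2 of the 8 loci, Esrrb and Prdm14, and both promoters, against 54.8% of loci and 30.1% of promoters over all genes. At Prdm14 a 3.69-kb H3K27me3 peak (chr1:13123901-13127590), called in the 100000- and 250000-cell libraries and the control, lay inside the 8.88-kb H3K4me1 promoter peak. Methylation there was low in both marks, 7.08% of 1158 calls in H3K4me1 run 2 and 5.81% of 740 in H3K27me3.

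The Esrrb locus was divided. Over its first 87.1 kb, which hold both starts, H3K27me3 peaks covered 92.4% and H3K4me1 peaks 3.68%. The next 98.6 kb had H3K4me1 over 61.9% and H3K27me3 over 0%, and the last 14.8 kb, past the gene, were covered 100% by H3K27me3. Blocks of 48.2, 10.4 and 20.9 kb made up most of the first stretch (chr12:86344810-86392969, chr12:86394841-86405284 and chr12:86407331-86428234), and each was called from 20000, 100000 and 250000 cells and in the control. Another peak of 1.00 kb (chr12:86342755-86343755) was called from 20000 cells alone. On H3K27me3 fragments from 250000 cells the 3 blocks had 84.5% of 2697, 44.4% of 1209 and 26.1% of 9532 calls methylated, and the 30.6-kb block past the gene 77.9% of 3999. These levels weigh CpGs by their calls. In the 20.9-kb block, adjoining 1-kb bins just past the inner start held 4344 and 2143 calls, with 110 and 98 methylated. In the 10.4-kb block, the bin centred at -18.5 kb held 618 calls, with 47 methylated. Outside H3K4me1 peaks and over 2000 bp from protein-coding starts, the Esrrb locus had 85.5% of 6669 calls methylated in this library.

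Within the H3K27me3 blocks, the 2 Esrrb starts had opposite methylation. At the upstream start 78.9% of 237 calls were methylated in H3K27me3 from 250000 cells, 81.2% of 165 from 100000 and 77.8% of 36 from 20000. At the inner start the levels were 7.88% of 4974, 8.46% of 3310, 8.50% of 494 and 9.62% of 52 from 250000, 100000, 20000 and 4000 cells. From 250000 cells, 282 of 630 calls were methylated in the 1 kb before the inner start and 110 of 4344 in the 1 kb after it. H3K4me1 had 11.9% of 201 at the inner start and 75.0% of 8 at the upstream one. With the upstream start in place of the inner one, H3K4me1 run 2 had too few calls for the promoter comparison of Esrrb. A small H3K4me1 peak inside the second block (chr12:86402692-86403501, 36 CpGs) was the lowest of Esrrb's distal peaks, with 5.56% of 108 calls in H3K4me1 and 4.0% of 575 in H3K27me3, while the highest lay in the first (chr12:86365307-86366098), with 60.5% of 38 and 43.4% of 122.

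Both libraries had enough calls on some peaks for a test between H3K27me3 and H3K4me1 fragments. Of these member peaks 2 passed, with a median of 24 H3K27me3 calls per tested peak. Of 32 member peaks that reached 10 calls in each library, 13 were higher and 18 lower on H3K27me3, with a median difference of -1.60 points, and 1 was called higher and 1 lower (Fisher's exact test, Benjamini-Hochberg adjustment over 16364 peaks). Over all peaks tested, 3.25% were called higher and 0.874% lower. Both calls were at Tbx3, in a locus that no H3K27me3 peak touched. The peak 24.6 kb downstream (chr5:119693611-119696603) had 51.0% of 200 calls in H3K4me1 and 92.3% of 13 in H3K27me3 (adjusted p = 0.0397, Fisher's exact test), and the gene-body peak (chr5:119675915-119680659) 32.4% of 204 and 0 of 17, which allows up to 17.65% (adjusted p = 0.0441). On CpGs called in both libraries these differences were 16.9 and -17.4 points, and neither passed Fisher's exact test (adjusted p = 0.712 and 0.717). Among the peaks with most H3K27me3 calls, the levels in H3K4me1 and H3K27me3 were 3.94% of 127 and 2.20% of 2907 at the Esrrb promoter and 10.2% of 2844 and 10.75% of 372 at the Tbx3 promoter.

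H3K9me3 fragments could be compared at 11 member peaks, with 12 to 73 calls each and no H3K9me3 peak in any of the loci. They were more methylated at 8, less at 2 and equal at 1, with a median difference of 11.5 points, and 2 passed the test, both higher; over all 6096 peaks tested 9.35% were called higher and 0.213% lower. The Klf5 peak centred at 38.2 kb (chr14:99332281-99341415) had 28.8% of 666 calls in H3K4me1 and 72.6% of 73 in H3K9me3 (adjusted p = 5.63e-11, Fisher's exact test). This peak lies mostly past the locus end, where H3K9me3 peaks were not looked up. The gene-body block of Tfcp2l1 (chr1:118640838-118653171) had 14.4% of 1408 and 52.2% of 23 (adjusted p = 7.91e-04, Fisher's exact test). On shared CpGs both calls held, with differences of 34.8 and 35.2 points. A second Klf5 peak (chr14:99319591-99328738) had 21.4% of 1297 and 40.6% of 69, a difference of 19.2 points with an adjusted p of 8.46e-03, short of the 20 points of the call rule. With H3K9me3 run 1 in place of run 2, neither call held, 25.02 points at Klf5 (adjusted p = 0.0617, Fisher's exact test) and too few calls at Tfcp2l1. The fit stratified by run number, a replicate block, called 3 peaks, both of these and the second Klf5 peak, but it counts both runs of what appears to be 1 library and adds no independent replicate.

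**Figure D4:**
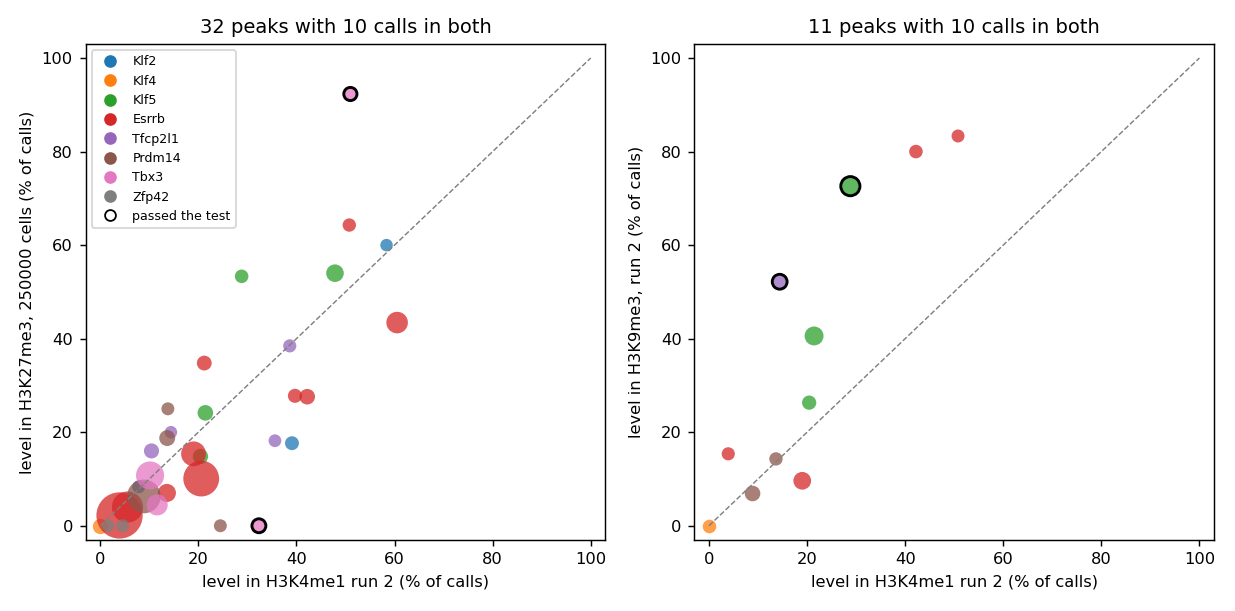
Methylation level (% of calls) of each H3K4me1 peak in H3K4me1 run 2 (x) against H3K27me3 from 250000 cells (y, left, 32 peaks) and H3K9me3 run 2 (y, right, 11 peaks); colour is the gene, point size grows with the calls of the second library, black rings mark peaks that passed the test and the dashed line is equality. Left points scatter around the line, with the 2 ringed Tbx3 peaks farthest from it, and 8 of the 11 right points lie above it.

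Other genes of the network were read with the same measures, as lists chosen with earlier results known. Among the core factors Pou5f1, Sox2 and Nanog, H3K4me1 covered a median of 64.1% of the locus, and 2 of 3 passed the distal call, Nanog (3.85% of 78 promoter and 29.5% of 1972 distal calls) and Pou5f1 (0 of 94 and 20.4% of 1837). Of 12 other genes linked with the naive state, 5 of 11 tested passed with the distal level higher, among them Tcl1 by 35.5 points and Dppa2 by 31.6, and the median cover was 23.8%. Of 10 genes of the LIF, WNT and BMP signals above these factors, 5 of 8 tested passed, among them Lifr (25.3 points), Stat3 (21.3) and Tcf7l1 (32.8), and Socs3, at 15.7, did not. Of 10 formative or primed-state genes, 4 of 10 passed, among them Fgf5 (29.6) and Pou3f1 (34.2). In none of these lists was a promoter called higher. Over all genes tested, 55.4% passed with the distal level higher and 4.77% with the promoter higher. H3K27me3 lay over the promoter of 8 of the 10 formative and primed genes, 3 of 10 signal genes and 2 of 12 other naive-linked genes. It lay over 0 of 3 core factors and 2 of the 8 genes described here, against 30.1% of all genes.

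On 5 standardised measures (the share of the locus under each of the 3 marks and the promoter and distal levels in H3K4me1 run 2), over 9488 genes, the gene nearest to Tbx3 was Sox2, at a Euclidean distance of 0.0351, with 66.2% of the locus under H3K4me1, 0.690% at the promoter and 15.6% in distal peaks. The nearest to Prdm14 was Id1 (0.317), a BMP target. Tfcp2l1 was nearest to Inpp5k (0.0725), Zfp42 to Ei24 (0.105), Klf4 to Psma4 (0.151), Klf5 to Mrpl52 (0.197), Klf2 to Ahdc1 (0.203) and Esrrb to Mast3 (0.330).

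E14 cells are of 129/Ola background and the CpG positions are those of the C57BL/6J reference, so a CpG lost in this strain can be read as unmethylated; this was not tested. The number of bases in a locus also differs, from 42.6 kb at Klf2 to 200.5 kb at Esrrb, and other RefSeq genes lie in 6 loci, protein-coding ones in 3 (Eps15l1 at Klf2, Clasp1 at Tfcp2l1, Ncoa2 at Prdm14).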

How the data were processed

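CUT&Tag-BS reads were turned by the authors into counts of methylated calls and of all calls per CpG and library, deposited as 1 table (mm10), and into peak lists per library and combined per mark. Cutadapt 1.12, Bismark 0.23.0, Bowtie2 2.3.0, HOMER 4.10.3 and bedtools 2.29.2 are named in the submitters' processing notes, and the handling of duplicate reads is not given in the sources used here. The 8 genes, the gene lists, rules and tests were chosen with earlier results of these data known. All members are named, with the promoter peak and the distal peaks of most calls, lowest and highest level, and every H3K27me3 peak.

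A level is methylated calls over all calls, summed over CpGs of a region, with a 95% Wilson interval. Where 0 calls were methylated, the limit is 3 calls of the total. Promoter and distal calls, or the calls of 2 marks at a peak, were compared by Fisher's exact test (two-sided, scipy 1.17.1) in every gene or peak with at least 10 calls on both sides, with Benjamini-Hochberg adjustment over all of them, and called at an adjusted p under 0.05 and at least 20 points. Every call was taken as independent, which calls on one fragment are not, so the p-values of these tests can be too small. The calculation was tested on simulated data. The CpG depth ranged from 378056 to 37177077 calls per library over all chromosomes. Run number did not pair independent samples, since both runs appear to read 1 library. Run 1 of either mark and the control libraries without bisulfite entered no main test. Alternatives were the run, call minimum, promoter window, flank, peak list, CpGs shared between libraries, H3K27me3 library and, chosen after seeing the data, 1 call per CpG and the other Esrrb start.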

Additional observations from a re-analysis of the deposited data

How the results depend on the processing

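Klf2 alone passed the distal call at 20 points, and 2 genes passed with H3K4me1 run 1 in place of run 2 (Klf2 and Tfcp2l1), with a 500-bp promoter window, with flanks of 10 kb or 50 kb (Klf2 and Klf5 in each of these 3), and with 1 call per CpG (Klf2 and Tfcp2l1; chosen after seeing the data); over the alternatives the count was 1 to 2. The median distal level of 18.4% became 25.01% as a mean of single CpG levels, 20.91% with 10-kb flanks and 20.37% with 50-kb flanks. The 2 H3K27me3 calls at Tbx3 became 1 with H3K4me1 run 1, and 0 with at least 20 calls, with at least 5 calls, on CpGs called in both libraries, with 1 call per CpG and with the 100000-cell library. The 2 H3K9me3 calls became 0 with H3K9me3 run 1 and 3 with H3K4me1 run 1. With the run number as a replicate block (Cochran-Mantel-Haenszel) 3 peaks were called, and the differences were 38.87 points at Klf5 and 35.6 at Tfcp2l1, although the runs appear to read 1 library. The cause of these changes was not tested. The median promoter level stayed between 1.25% and 3.815%, and 0 results reversed. Of values for single genes and peaks, 96 kept their side of the threshold, 9 lost and 5 gained it. Calls are few in the mark comparisons, with 13 and 17 H3K27me3 calls at the called Tbx3 peaks and 12 to 73 H3K9me3 calls per peak, and no library has a biological replicate at the same cell number.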
